A study of Mus musculus with 9 samples.

Results

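The genes described here are 10 chains of interferon and interleukin receptors, Ifngr1, Ifngr2, Ifnar1, Ifnar2, Il22ra1, Il10rb, Il4ra, Il13ra1, Il17rc and Il6st. They were found by their gene name on the array, which gave 16 probes of 41174 and 10 genes of 28478 gene names. RNA of sorted epithelial cells from C57BL/6 mice was hybridised to 9 single-colour Agilent arrays, 3 for each of 3 groups. Kidney cells were freed with collagenase, dispase and DNAse and sorted as Epcam+ CD45-, with 4 mice pooled for each replicate (kidney). Cells of the small intestine were released with EDTA and sorted, with 3 mice pooled for each replicate, as Epcamhi MHChi CD45- (MHCIIhi) or as Epcamint MHCint CD45- (called MHCIIlo, as in the sample titles, although another label calls them MHCIIint). All gates left out dead cells by Fluorogold. The replicates are independent pools, and the spread between them is that between pools. Tissue and method of release cannot be told apart.

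Cytokine receptors of this kind have no enzyme of their own in most cases. For most of these chains, a ligand joins a binding chain to a signalling chain. JAK kinases bound to their tails then phosphorylate STAT factors, which move to the nucleus. Il17rc instead recruits the adapter Traf3ip2 (Act1). Gamma interferon acts through Ifngr1 and Ifngr2, and raises MHC class II in many epithelia. Type I interferons act through Ifnar1 and Ifnar2. Il10rb is a chain shared by the receptors for interleukin 10, interleukin 22 and the lambda interferons, and Il22ra1 is the chain that gives epithelia their response to interleukin 22. Il4ra pairs with Il13ra1 outside blood cells, Il17rc pairs with Il17ra, and Il6st (gp130) carries the signal of the interleukin 6 family.

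Promoters of 4 of these genes are printed because their transcripts showed the widest differences between groups (Il17rc, Ifngr1 and Ifngr2, low in kidney) or the opposite one (Ifnar2, high in kidney). Each is the 250 bases before the RefSeq gene start on GRCm38.p6, plus strand, and lies at chr6:113471205-113471454 (Il17rc), chr10:19591699-19591948 (Ifngr1), chr16:91546809-91547058 (Ifngr2) and chr16:91372533-91372782 (Ifnar2). Capitals mark matches to any of 4 motifs, searched on both strands.
Il17rc promoter: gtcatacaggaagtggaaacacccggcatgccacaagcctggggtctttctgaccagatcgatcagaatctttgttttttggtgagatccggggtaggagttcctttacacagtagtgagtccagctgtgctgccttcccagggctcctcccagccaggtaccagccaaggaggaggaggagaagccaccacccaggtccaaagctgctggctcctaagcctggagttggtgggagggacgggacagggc
Ifngr1 promoter: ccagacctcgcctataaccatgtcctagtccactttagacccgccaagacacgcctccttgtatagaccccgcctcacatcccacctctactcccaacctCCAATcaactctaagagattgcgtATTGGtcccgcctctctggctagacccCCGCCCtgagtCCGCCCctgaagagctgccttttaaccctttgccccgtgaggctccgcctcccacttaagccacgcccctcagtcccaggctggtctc
Ifngr2 promoter: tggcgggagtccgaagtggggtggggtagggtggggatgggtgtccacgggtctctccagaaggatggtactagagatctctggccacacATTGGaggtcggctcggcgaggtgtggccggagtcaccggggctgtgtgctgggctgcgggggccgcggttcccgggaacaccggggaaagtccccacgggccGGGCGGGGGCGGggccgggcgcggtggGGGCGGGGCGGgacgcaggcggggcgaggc
Ifnar2 promoter: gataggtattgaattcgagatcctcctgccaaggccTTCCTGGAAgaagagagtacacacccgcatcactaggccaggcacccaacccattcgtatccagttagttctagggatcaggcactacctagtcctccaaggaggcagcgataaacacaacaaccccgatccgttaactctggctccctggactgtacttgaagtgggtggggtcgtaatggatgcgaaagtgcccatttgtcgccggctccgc

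The motifs were the STAT-binding GAS element (TTCNNNGAA), the interferon-stimulated response element (GAAA repeated after 2 free bases, or TTTC likewise on the other strand), the GC box (GGGCGG or CCGCCC) and the CCAAT box (CCAAT or ATTGG). Matches of the GC box overlap in the Ifngr2 promoter. RefSeq promoters were matched for 9 of the 10 genes; Il10rb was not among them. The GAS element was found in 1 of the 9, Ifnar2, and in 7.18% of 27025 promoters. The response element was found in 0 of the 9 and in 3.04% of all. The GC box was found in 7 of the 9 (32.9% of all), Il17rc and Ifnar2 being without it, and the CCAAT box in 4 of the 9 (34.5% of all). A match describes the letters of this window alone. The Il17rc window held 4 CpG pairs, against 25 in Ifngr2, 11 in Ifngr1 and 11 in Ifnar2, with a median of 6.0 over all promoters.

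The probes are 60 bases long, and the first 30 bases are printed for those whose readings differed within a gene. The array annotation gives their positions on mm8 and the base of the transcript at which they start. Ifnar2 was read at base 814 (chr16:91282658-91282717) and at base 2582 (chr16:91294093-91294152). Il17rc was read at base 2085 (chr6:113448848-113448907), at base 1965 (chr6:113448728-113448787), and by a probe to a cDNA clone (chr6:113447986-113448045) that is annotated in the opposite orientation to the other 2. Il13ra1 was read at base 1581 (chrX:32600603-32600662) and at base 2582 (chrX:32601604-32601663). Whether these bases are coding or untranslated was not examined here.
Ifnar2 base 814: gtccttagagacttacttccaaagacaaac
Ifnar2 base 2582: tacatgggtcctggctcaaagacttccaat
Il17rc base 2085: aggctgctgcgaggaatgggacctgggacc
Il17rc base 1965: cctggatgcactgcagggaggctgctccac
Il17rc clone probe: ggaaaataatgggctagtaagaaaccttta
Il13ra1 base 1581: tagaggacaaagacaaggggacaatgacca
Il13ra1 base 2582: taagtggtcctgtcaattctgtgttttatt

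The other genes were read at chr10:19299533-19299592 (Ifngr1), chr16:91452596-91452655 (Ifngr2), chr16:91395653-91395712 (Ifnar1), chr4:135022651-135022710 (Il22ra1), chr16:91314506-91314565 (Il10rb), chr7:125368771-125368830 (Il4ra) and chr13:113627256-113627315 (Il6st). Ifnar2, Il10rb, Ifnar1 and Ifngr2 are 4 consecutive protein-coding genes on chromosome 16, and their probes lie within 170 kb.

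The level of a gene is given as the log2 processed signal minus the 75th percentile of its array, so that 0 is that percentile. Levels of different probes are not comparable. A difference was called at an adjusted p below 0.05 (limma, Benjamini-Hochberg over 19972 genes) and an absolute log2 size of at least 1. The 75th percentile itself was 599 to 770 in kidney, 213 to 371 in MHCIIhi and 101 to 185 in MHCIIlo, and the share of spots well above background was 71.2% to 73.2%, 60.9% to 64.7% and 51% to 57.3% in the same groups. The direction without scaling is given beside each result of a receptor gene, because the all-gene median then moved to 0.93 for MHCIIhi minus MHCIIlo, 1.18 for kidney minus MHCIIhi and 2.40 for kidney minus MHCIIlo. Kidney lay on a slide of its own, so slide and tissue cannot be told apart. MHCIIhi 1 and 2 lay on another slide, and MHCIIhi 3 shared a slide with the 3 MHCIIlo arrays.

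Markers of the labelled tissues were present. Epcam, used in every gate, averaged 5.04 ± 0.24 in MHCIIhi and 5.30 ± 0.21 in MHCIIlo (log2 level, SD, n = 3 arrays each). The difference was -0.26 (limma adjusted p = 0.48), so after scaling the gate with high surface Epcam did not have the higher mean transcript level. Without scaling the all-gene median of that comparison moved to 0.93, and the Epcam difference on that scale is not given here. The MHC class II genes of the gates are not analysed here. Sums below add the signals of a list's probes relative to the array's 75th percentile and are led by its brightest probes. The sum of 6 epithelial markers was 112 to 132 in kidney, 1310 to 1510 in MHCIIhi and 1690 to 1940 in MHCIIlo, with 6 of 6 measured in each group. That of 9 kidney tubule markers was 990 to 1060 in kidney (9 measured), 0.525 to 0.95 in MHCIIhi (5 measured) and 0.899 to 1.44 in MHCIIlo (3 measured). Endothelial markers summed to 24 to 55.4 in kidney (7 of 7 measured), 0.0991 to 0.261 in MHCIIhi and 0.207 to 0.269 in MHCIIlo, with Pecam1, Cdh5, Kdr, Emcn and Eng not well above background in either intestinal group (2 of 7 measured). Fibroblast and muscle markers summed to 12.4 to 20.1 in kidney (7 of 8, without Pdgfra), T cell markers to 1.58 to 2.15 (7 of 10, without Cd3d, Cd3g and Gzma), B and plasma cell markers to 0.406 to 0.587 (6 of 8, without Ms4a1 and Tnfrsf17) and macrophage and dendritic markers to 2.8 to 6.29 (7 of 9, without Itgax and Itgam). Single markers of these lists were nonetheless higher in kidney than in MHCIIhi after scaling, namely Csf1r (42.5-fold), Dcn (25.6-fold), Myh11 (20-fold) and Col3a1 (at least 3.23-fold), while Acta2 (2.47-fold), C1qb (5.73-fold) and Lyz2 (124-fold) were lower. Cd68, Itgax, Itgam and Cd14 of the macrophage list were called lower as well. Against MHCIIlo, Csf1r (14.3-fold) and Myh11 (10.6-fold) were higher in kidney, and Dcn (-0.23, adjusted p = 0.849) and Col3a1 (-0.94, adjusted p = 0.23) were not called.

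Other cell type markers also differed between the intestinal groups. Absorptive enterocyte markers summed to 829 to 1770 in MHCIIhi and 2560 to 3970 in MHCIIlo (10 of 10 measured in both), dividing crypt markers to 33.7 to 67.8 and 2.02 to 4.9 (8 of 8), and Paneth and goblet markers to 763 to 1250 and 263 to 547 (7 of 7) in the same order. T cell markers summed to 1.71 to 3.6 in MHCIIhi and 5.84 to 10.9 in MHCIIlo (10 of 10), and B and plasma cell markers to 1.1 to 2.18 (7 of 8, without Tnfrsf17) and 21.8 to 36.4 (8 of 8). Macrophage and dendritic markers summed to 100 to 175 in MHCIIhi (8 of 9, without Adgre1) and 16.2 to 51.7 in MHCIIlo (8 of 9, without C1qa). That sum is led by Lyz2 (mean level 7.07 in MHCIIhi and 4.70 in MHCIIlo), whose near copy Lyz1, a Paneth cell product, differed in the same direction (6.39 and 3.99). Probes of such copies may cross-react, so both values are uncertain. Csf1r (-1.57), Itgax (-1.50) and C1qb (-2.17) of the same list were called lower in MHCIIhi, and Cd14 (1.59) higher. Fibroblast and muscle markers summed to 27.7 to 33 in MHCIIhi (5 of 8, without Col1a1, Col3a1 and Pdgfra) and 48.7 to 67 in MHCIIlo (7 of 8, without Pdgfra). Their part in the receptor results was not tested. Fewer cells of a type and less RNA per cell cannot be told apart in such samples.

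In kidney, the chains that bind gamma interferon, interleukin 17, interleukins 4 and 13 and interleukin 22 lay below both intestinal groups after scaling, whereas Ifnar2 and Il6st lay above both. Between kidney and MHCIIhi, 8 of 10 receptor genes were called, 2 higher and 6 lower, while 48.4% of all genes tested were called (25.6% higher, 22.8% lower). Between kidney and MHCIIlo, 9 were called, 2 higher and 7 lower, while 57.6% of all genes were called (29.8% higher, 27.9% lower). Without scaling, the calls were 3 higher and 3 lower in each of the 2 comparisons, Ifnar1, Ifnar2 and Il6st being higher and Ifngr1, Ifngr2 and Il17rc lower. The all-gene medians were then 1.18 and 2.40, and relative to them Ifnar1 lay at 0.33 and -0.23. The share of all genes called without scaling is not given here. Every kidney array lay above every MHCIIhi array for 2 genes and below for 6 (36.1% of all genes in each direction), and above every MHCIIlo array for 2 and below for 7 (39.7% and 38.5% of all genes). The median log2 difference of the 10 genes was -1.53 for kidney minus MHCIIhi and -2.48 for kidney minus MHCIIlo, with medians of -0.02 and 0.04 over all genes. The 2 comparisons share the kidney arrays.

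Between MHCIIhi and MHCIIlo, all 10 receptor genes had a lower mean in MHCIIhi after scaling, and without scaling 9 of the 10, all but Il17rc, had a higher one. Of the 10, 4 were called lower in MHCIIhi (Ifngr2, Il22ra1, Il4ra and Il17rc) and 0 higher, and 8 had an adjusted p below 0.05. Of all genes 31% were called, 16.1% lower and 14.9% higher. For 9 of the 10 genes, every MHCIIhi array lay below every MHCIIlo array, as it did for 32.7% of all genes, while 23.7% lay the other way. The median of the 10 was -0.89, and that of all genes was -0.24, so that part of the shift was shared with the whole array. Without scaling, the 1 gene called was Il6st, which was higher in MHCIIhi, by a log2 difference of 1.12, where the all-gene median was 0.93. Within the slide that holds MHCIIhi 3 and the 3 MHCIIlo arrays, 1 gene was called, Il17rc. That comparison has 1 MHCIIhi array, which is assumed to vary as the other arrays do, since the spread is pooled over all 9. Without MHCIIhi 2 the count was likewise 1, again Il17rc, and without MHCIIhi 3 or MHCIIlo 1 it was 5, with Il10rb added.

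**Figure D1:**
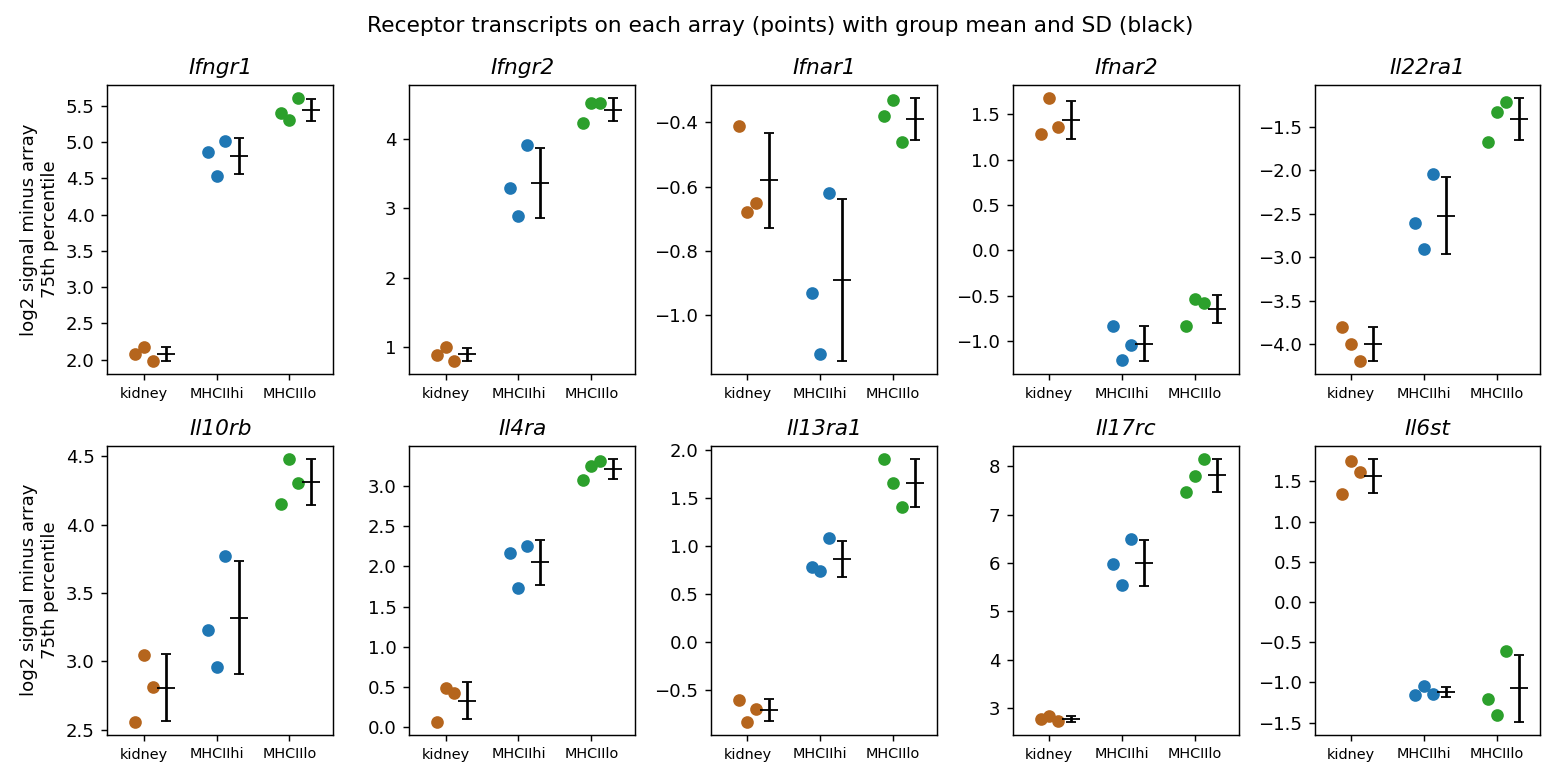
Level of each receptor gene on every array (log2 scale, 0 being the 75th percentile of the array, each panel with its own axis), in kidney, MHCIIhi and MHCIIlo from left to right. Points are arrays, and black marks give the mean and SD of 3. Ifnar2 and Il6st are highest in kidney, and the other panels except Ifnar1 are lowest there, although Il10rb turns without scaling and the Il13ra1 mean of kidney then equals that of MHCIIlo (difference 0). The order of MHCIIhi below MHCIIlo holds after scaling, and turns without it in all panels but Il17rc.

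The largest difference was that of Il17rc, which binds interleukins 17A and 17F together with Il17ra. Its level was 2.77, 2.85 and 2.73 in kidney, 5.97, 5.54 and 6.49 in MHCIIhi and 7.47, 7.80 and 8.15 in MHCIIlo. The 3 groups did not overlap. Il17rc was 9.30-fold lower in kidney than in MHCIIhi (log2 difference -3.22 ± 0.27 SE, adjusted p = 9.65e-06) and 32.5-fold lower than in MHCIIlo (-5.02 ± 0.27, adjusted p = 5.97e-07). It was 3.49-fold lower in MHCIIhi than in MHCIIlo (-1.80 ± 0.27, adjusted p = 0.00154). Within the shared slide, with its 1 MHCIIhi array and the pooled spread, this difference was -1.31 (adjusted p = 0.0388). Of the receptor genes, it alone kept its lower value in MHCIIhi without scaling, at -0.64 (adjusted p = 0.0613). Without scaling it was also lower in kidney, by -2.02 against MHCIIhi and -2.66 against MHCIIlo. Its processed signal was 4090 to 5110 in kidney, 17300 to 20000 in MHCIIhi and 26900 to 32800 in MHCIIlo.

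The second probe on the same Il17rc transcript gave log2 differences of -3.11 and -4.84 for kidney minus MHCIIhi and minus MHCIIlo, and -1.73 for MHCIIhi minus MHCIIlo. The clone probe in the opposite orientation, however, gave 0.08 ± 0.34 (adjusted p = 0.846), -1.05 and -1.14 for the same comparisons. It thus did not share the large difference of kidney from MHCIIhi.

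Ifngr1, the chain that binds gamma interferon, had levels of 2.08, 2.17 and 1.98 in kidney, 4.87, 4.53 and 5.02 in MHCIIhi and 5.41, 5.31 and 5.61 in MHCIIlo. Ifngr2, its signalling partner, had levels of 0.89, 1 and 0.81 in kidney, 3.29, 2.89 and 3.90 in MHCIIhi and 4.22, 4.51 and 4.51 in MHCIIlo. For both genes the order was kidney, MHCIIhi, MHCIIlo, with no overlap after scaling. Ifngr1 was 6.62-fold lower in kidney than in MHCIIhi (-2.73 ± 0.18, adjusted p = 2.71e-06) and 10.3-fold lower than in MHCIIlo (-3.37, adjusted p = 6.53e-07). Ifngr2 was 5.5-fold lower in kidney than in MHCIIhi (-2.46 ± 0.25, adjusted p = 3.56e-05) and 11.4-fold lower than in MHCIIlo (-3.51, adjusted p = 3.25e-06). Both were lower in kidney without scaling as well, Ifngr1 by -1.53 and -1.01 and Ifngr2 by -1.26 and -1.15.

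In MHCIIhi, Ifngr2 was 2.08-fold lower than in MHCIIlo (-1.05 ± 0.25, adjusted p = 0.0102), and Ifngr1 differed by -0.64 ± 0.18 (adjusted p = 0.0196), under the size needed for a call. Without scaling the differences were 0.11 and 0.52 with the opposite sign, and within the shared slide, from 1 MHCIIhi array with the pooled spread, they were -0.51 (adjusted p = 0.222) and -0.43 (adjusted p = 0.278). Without scaling, the order of these chains between the intestinal groups turned. The second Ifngr2 probe, whose annotated interval (chr16:91450606-91451758) is longer than its 60 bases, gave -3.26 for kidney minus MHCIIhi, -4.10 for kidney minus MHCIIlo and -0.84 (adjusted p = 0.0686) for MHCIIhi minus MHCIIlo.

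The type I interferon chains did not move together. Ifnar2, the chain with the higher affinity for the ligand, had levels of 1.28, 1.68 and 1.36 in kidney, -0.83, -1.21 and -1.05 in MHCIIhi and -0.83, -0.54 and -0.58 in MHCIIlo. All kidney arrays lay above all intestinal ones, and the intestinal groups met at -0.83. Ifnar2 was 5.55-fold higher in kidney than in MHCIIhi (2.47 ± 0.19, adjusted p = 5.29e-06) and 4.26-fold higher than in MHCIIlo (2.09, adjusted p = 1.18e-05). The intestinal groups differed by -0.38 (adjusted p = 0.112, 95% interval -0.80 to 0.04). The second Ifnar2 probe, measured on 8 of 9 arrays, gave 3.39 ± 0.28 for kidney minus MHCIIhi and 3.30 for kidney minus MHCIIlo. Without scaling Ifnar2 was higher in kidney by 3.67 and 4.45.

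Ifnar1, its partner chain, had levels of -0.41, -0.68 and -0.65 in kidney, -0.93, -1.12 and -0.62 in MHCIIhi and -0.38, -0.33 and -0.46 in MHCIIlo. Kidney overlapped both intestinal groups. Kidney minus MHCIIhi was 0.31 (adjusted p = 0.162, 95% interval -0.10 to 0.72) and kidney minus MHCIIlo was -0.19 (adjusted p = 0.356, -0.60 to 0.22), so no difference was detected at this precision. Without scaling, Ifnar1 was higher in kidney by 1.51 and 2.17, where the all-gene medians were 1.18 and 2.40. MHCIIhi minus MHCIIlo was -0.50 ± 0.18 (adjusted p = 0.0446), and 0.66 without scaling.

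**Figure D2:**
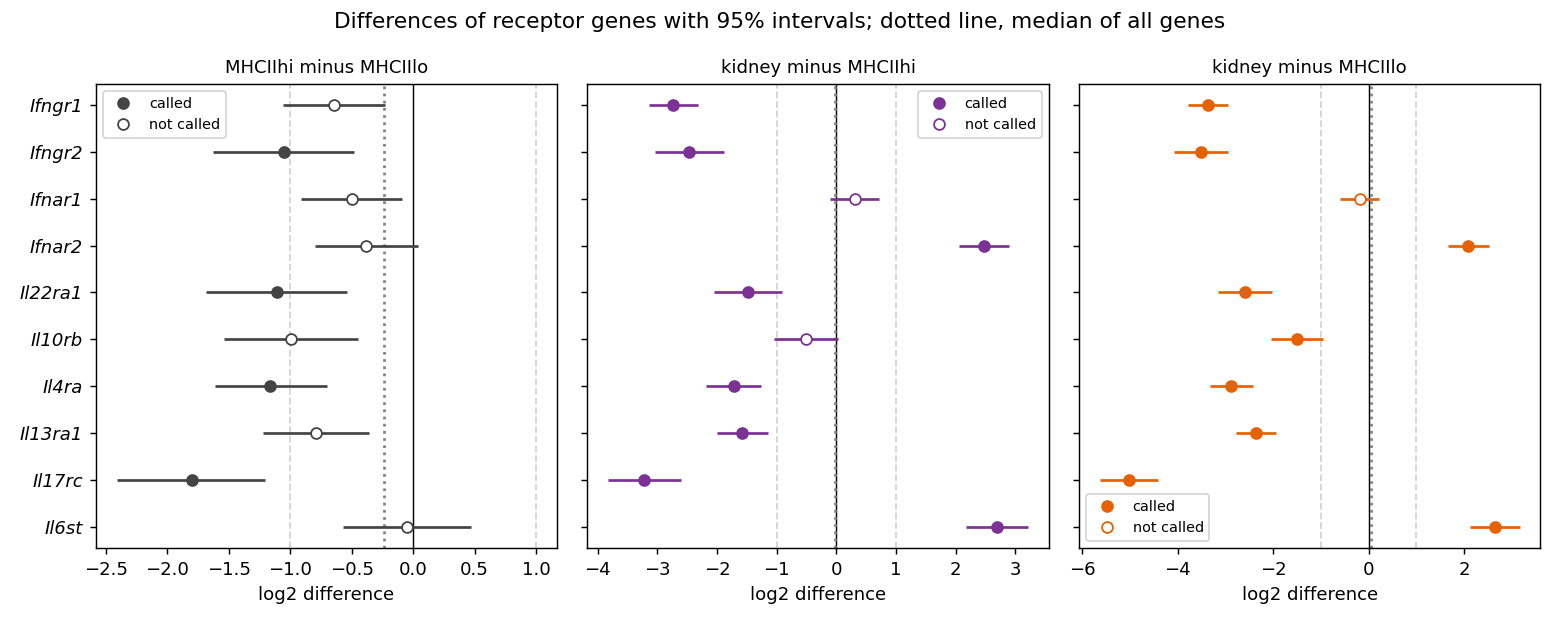
Log2 differences of the 10 receptor genes for MHCIIhi minus MHCIIlo, kidney minus MHCIIhi and kidney minus MHCIIlo, with 95% intervals. Filled points were called, dashed lines mark an absolute log2 size of 1, and the dotted line is the median of all genes. Ifnar2 and Il6st lie right of 0 in both kidney panels. In the left panel all points lie left of 0 after scaling, and all but Il17rc turn to the right without it.

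Il6st, the shared signalling chain of the interleukin 6 family, had levels of 1.34, 1.75 and 1.62 in kidney, -1.16, -1.05 and -1.14 in MHCIIhi and -1.20, -1.41 and -0.61 in MHCIIlo. Every kidney array lay above every intestinal array, and the intestinal groups overlapped. Il6st was 6.44-fold higher in kidney than in MHCIIhi (2.69 ± 0.23, adjusted p = 1.11e-05) and 6.24-fold higher than in MHCIIlo (2.64, adjusted p = 1.02e-05). Without scaling it was higher by 3.88 and 5. MHCIIhi minus MHCIIlo was -0.05 (adjusted p = 0.877, 95% interval -0.57 to 0.47), which is 0.19 above the median of all genes.

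Il4ra, the binding chain for interleukin 4, had levels of 0.07, 0.49 and 0.43 in kidney, 2.17, 1.73 and 2.25 in MHCIIhi and 3.07, 3.25 and 3.31 in MHCIIlo. The groups did not overlap. It was 3.29-fold lower in kidney than in MHCIIhi (-1.72 ± 0.20, adjusted p = 8.27e-05), 7.35-fold lower in kidney than in MHCIIlo (-2.88, adjusted p = 2.81e-06) and 2.23-fold lower in MHCIIhi than in MHCIIlo (-1.16, adjusted p = 0.00297). Without scaling these differences were -0.52, -0.51 and 0.01, with adjusted p of 0.158, 0.142 and 0.985.

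Il13ra1, with which Il4ra forms the receptor for interleukin 13, had levels of -0.60, -0.83 and -0.70 in kidney, 0.78, 0.74 and 1.08 in MHCIIhi and 1.91, 1.66 and 1.41 in MHCIIlo. It was 2.98-fold lower in kidney than in MHCIIhi (-1.58 ± 0.19, adjusted p = 9.07e-05) and 5.16-fold lower than in MHCIIlo (-2.37, adjusted p = 5.98e-06), and MHCIIhi minus MHCIIlo was -0.79 (adjusted p = 0.00994). The groups did not overlap. Without scaling the differences were -0.38, 0 and 0.37. The probe at base 2582 gave smaller differences from kidney, -0.53 ± 0.22 (adjusted p = 0.0588) for kidney minus MHCIIhi and -1.18 for kidney minus MHCIIlo (adjusted p = 0.000957).

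Il22ra1 had levels of -3.80, -4.00 and -4.19 in kidney, -2.61, -2.91 and -2.04 in MHCIIhi and -1.68, -1.33 and -1.22 in MHCIIlo. It was called lower in kidney than in MHCIIhi (2.79-fold, -1.48 ± 0.25, adjusted p = 0.00078) and than in MHCIIlo (6.01-fold, -2.59, adjusted p = 1.98e-05), and lower in MHCIIhi than in MHCIIlo (2.15-fold, -1.11, adjusted p = 0.00821). The groups did not overlap after scaling. Its processed signal, however, lay between 41.4 and 57.7 on all 9 arrays, and without scaling the differences were -0.28, -0.22 and 0.06. These were under the size needed for a call, so the calls of Il22ra1 depend on the scaling. The all-gene medians without scaling were 1.18, 2.40 and 0.93, and relative to them Il22ra1 lay at -1.46, -2.62 and -0.87.

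Il10rb, the chain shared with Il22ra1, had levels of 2.56, 3.05 and 2.81 in kidney, 3.23, 2.96 and 3.77 in MHCIIhi and 4.15, 4.48 and 4.30 in MHCIIlo. Kidney and MHCIIhi overlapped, and both lay below MHCIIlo. Kidney minus MHCIIhi was -0.51 (adjusted p = 0.0915, 95% interval -1.05 to 0.03), kidney minus MHCIIlo was -1.50 ± 0.24 (adjusted p = 0.000439), and MHCIIhi minus MHCIIlo was -0.99 (adjusted p = 0.0106). Without scaling they were 0.69, 0.86 and 0.17, so that the sign turned in each. A second Il10rb probe was measured on 4 arrays and not tested.

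**Figure D3:**
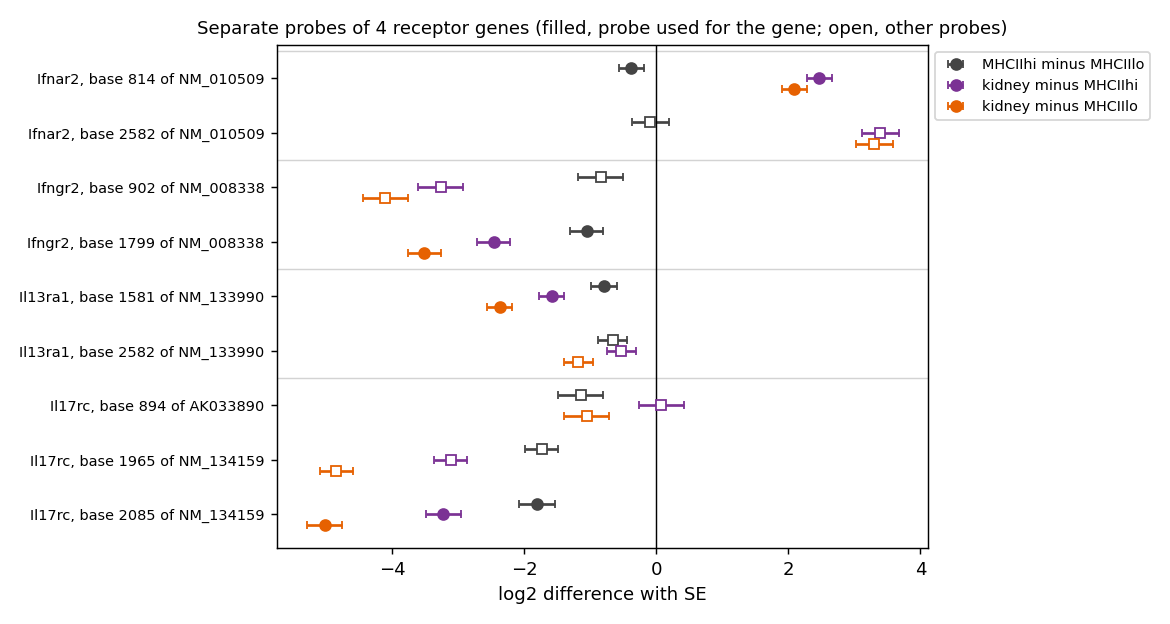
Log2 differences with SE for the separate probes of Ifnar2, Ifngr2, Il13ra1 and Il17rc, in the 3 comparisons shown by colour. Filled symbols are the probes used for the gene, and open symbols the others. Both Ifnar2 probes lie right of 0 in the kidney comparisons, and the Il17rc probe to a clone differs from the other 2, with 0.08 for kidney minus MHCIIhi.

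Profiles were also compared over the 9 arrays, each centred on its own mean, by the root mean square log2 distance among 9676 genes measured on all arrays. Among the receptor genes, Ifngr1 and Ifngr2 were 0.24 apart, Il22ra1 and Il4ra 0.26, and Ifnar2 and Il6st 0.33. Nearest to Il17rc were Cdhr5, a brush border protocadherin, at 0.19, Adck5 at 0.19 and Aldh3b1 at 0.20. Nearest to Ifngr2 were Mgat3 at 0.13, Rnf6 at 0.15 and Pak1 at 0.16, and nearest to Ifngr1 were Trim14 at 0.13, Degs2 at 0.16 and Tprn at 0.16. These are likenesses over arrays that share their scaling.

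Among 25 partner chains and other cytokine receptors, 21 were tested. For kidney minus MHCIIhi, 7 were called higher and 4 lower, and for kidney minus MHCIIlo 6 higher and 9 lower. Of all genes tested, 25.6% and 22.8%, and 29.8% and 27.9%, were called higher and lower in the same order. Without scaling all 11 of the first comparison kept their sign, and 10 of the 15 of the second did. Il17re, which pairs with Il17ra for interleukin 17C, was 9.37-fold higher in kidney than in MHCIIhi (3.23 ± 0.26, adjusted p = 7.83e-06) and 14-fold higher than in MHCIIlo (3.81). Ifnlr1, the lambda interferon chain that pairs with Il10rb, was lower in kidney (-1.97 and -2.90). Il11ra1, the binding chain for interleukin 11, was higher in kidney (2.65 and 1.76), as was Cntfr (2.09 and 1.78), whereas Lifr was lower (-1.41 and -2.39, but -0.21 and -0.02 without scaling).

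Osmr, Il1r1, Il1rl1 and Il2rb were singled out after their values were seen. Osmr and Il1r1 were not well above background on any intestinal array. Osmr, which pairs with Il6st, was at least 15-fold higher in kidney than in MHCIIhi and at least 6.98-fold higher than in MHCIIlo. Il1r1 was at least 48.2-fold and at least 22.5-fold higher in the same comparisons. In the other direction, Il2rb, not well above background on any kidney array, was at least 3.24-fold lower in kidney than in MHCIIhi and at least 10.1-fold lower than in MHCIIlo. Il1rl1, well above background on 1 of 3 kidney arrays, was at least 9.82-fold and at least 37.4-fold lower, with an SD of 2.56 in MHCIIhi. Of the fibroblast and macrophage lists, Dcn, Myh11, Col3a1 and Csf1r were higher in kidney than in MHCIIhi, as given above. Acta2, Cd68, Itgax, Itgam, C1qb, Lyz2 and Cd14 of the same lists were lower. Each endothelial marker was called higher in kidney in both comparisons. The part of such cells in the differences of Osmr, Il1r1, Il2rb and Il1rl1 was not tested. For these bounds the mean of the brighter group was set against a floor on each array of the dimmer group, which was the dimmest signal counted as well above background or that of the probe itself, whichever was greater.

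Between the intestinal groups, 1 of the 21 was called higher in MHCIIhi and 3 lower among genes measured in either group. Of all genes tested, 14.9% were called higher and 16.1% lower. All 4 list genes kept their sign without scaling. The 3 lower differences then came to -0.32 (Il10ra), -0.48 (Il2rb) and -0.96 (Il2rg), under the size needed for a call. Il1rap was at least 1.77-fold higher in MHCIIhi. Il10ra (-1.49), Il2rb (-1.64) and Il2rg (at least 2.27-fold) were lower in MHCIIhi after scaling. These 3 are chains of lymphocytes among other cells, and the T and B cell markers given above were lower in MHCIIhi too. Their part in these differences was not tested.

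Of 12 JAK kinases and STAT factors (with Irf9), 11 were tested. For MHCIIhi minus MHCIIlo, 1 was called higher and 4 lower, for kidney minus MHCIIhi 2 and 3, and for kidney minus MHCIIlo 3 and 7. Of all genes tested, 14.9% and 16.1%, 25.6% and 22.8%, and 29.8% and 27.9% were called higher and lower in the same order. Jak2, the kinase of Ifngr2, had mean levels of -0.02 in kidney, 2.03 in MHCIIhi and 3.37 in MHCIIlo, and differed by -2.05 ± 0.24 (adjusted p = 8.06e-05) for kidney minus MHCIIhi and by -3.39 for kidney minus MHCIIlo. Stat6, which acts below Il4ra, was lower in kidney (-1.89 and -3.18), and so was Stat2 (-1.48 and -2.86). Stat5a (1.45 and 2.59) and Jak3 (1.48 and 1.74) were higher. In MHCIIhi relative to MHCIIlo, Jak2 (-1.34), Stat2 (-1.39), Stat3 (-1.25) and Stat6 (-1.30) were lower and Stat5a (1.14) higher. Without scaling these 5 kept their sign, with Jak2 at -0.18, Stat2 at -0.22, Stat3 at -0.09, Stat6 at -0.13 and Stat5a at 2.31.

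**Figure D4:**
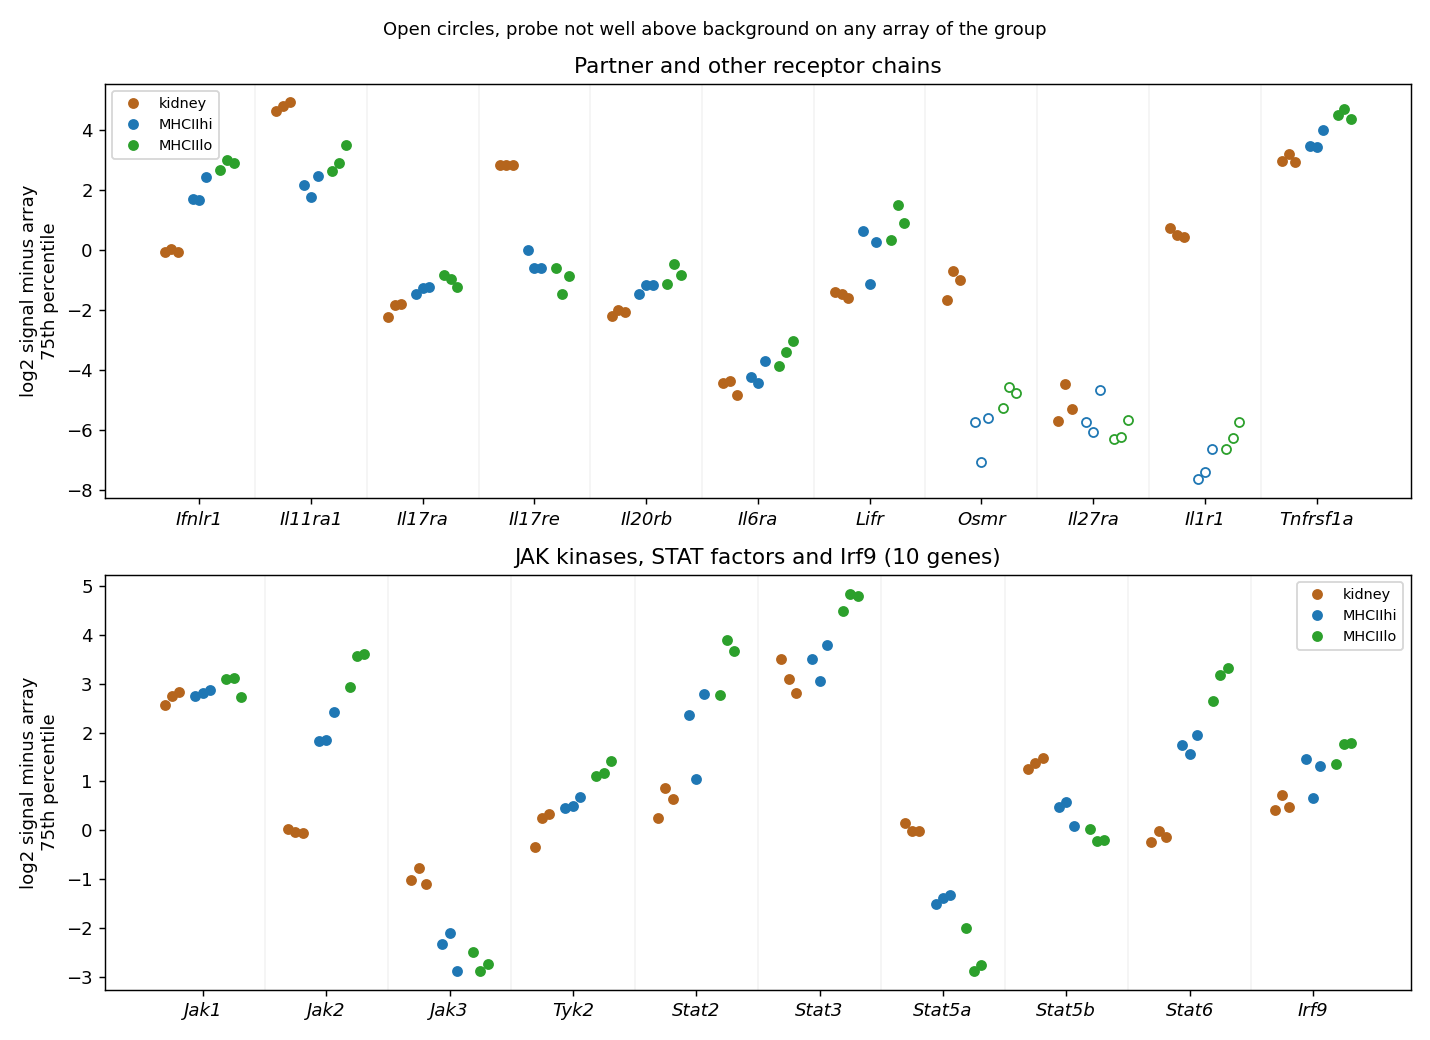
Level on each array (log2 scale, 0 being the 75th percentile of the array) of 11 partner and other receptor chains (top) and of 10 of the JAK kinases and STAT factors, with Irf9 among them (bottom), in kidney, MHCIIhi and MHCIIlo from left to right within each gene. Open circles mark groups in which the probe was not well above background on any array. Il17re, Il11ra1, Osmr and Il1r1 are highest in kidney, and Jak2 and Stat6 are lowest there.

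Among 11 attenuators of these signals, all tested with limma, 0 were called between the intestinal groups. There, 4 had an unadjusted and 3 an adjusted p below 0.05, but with differences under the size needed for a call. For kidney minus MHCIIhi 1 was called higher and 3 lower, and for kidney minus MHCIIlo 2 were called lower. Of all genes tested, 14.9% and 16.1%, 25.6% and 22.8%, and 29.8% and 27.9% were called higher and lower in the same order. Socs1, an inhibitor of JAK kinases, was lower in kidney (-1.99 and -2.90), and Socs2 by -1.40 and -1.54, with the second turning to 0.82 without scaling. Cish was higher in kidney than in MHCIIhi (1.20). The shares of all genes given for the attenuators apply to the next list too. Among 9 adapters and targets of interleukin 17 signalling, 1 was called higher in MHCIIhi than in MHCIIlo, 1 higher and 4 lower for kidney minus MHCIIhi, and 2 higher and 5 lower for kidney minus MHCIIlo. Without scaling, 4 of those 5 turned, Traf3ip2 to 1.02, Traf2 to 1.21, Tnfaip3 to 0.65 and Cebpb to 0.77, while Zc3h12a did not. Zc3h12a, an RNase that limits cytokine transcripts, was 16.6-fold lower in kidney than in MHCIIhi (-4.05 ± 0.31, adjusted p = 5.73e-06) and 14.6-fold lower than in MHCIIlo (-3.87), and was lower without scaling too (-2.86 and -1.51). Traf3ip2 (Act1), the adapter that Il17rc recruits, was lower in kidney by -1.51 and -1.34 after scaling. Traf5 was higher in kidney (2.33 and 3.50) and in MHCIIhi relative to MHCIIlo (1.16).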

How the data were processed

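Deposited scanner files of 9 single-colour arrays (Cy3) held, per the file headers, background-subtracted processed signals as intensity on a linear scale, made by the authors with Agilent Feature Extraction 10.5.1.1. The values that the authors tabulated are intensity too, and were found to be processed signals over the median of their array (largest relative deviation 2.37e-05), so every column has a median of 1 and genes are not centred. Control spots and outlier-flagged spots were left out, spots of a probe were averaged, and a gene was its probe with the highest mean. Of 41174 probes, 24375 matched RefSeq names and the rest kept the file's name. No spot was saturated (0 on each array).

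Processed signals were put on the log2 scale and centred on the 75th percentile of each array. Tested were 19972 genes whose probe was well above background throughout 1 or more of the groups. Group was fitted over all 9 arrays with limma 3.58.1 (lmFit, eBayes) in R 4.3.3 (files read by version 1.17.8 of data.table), with Benjamini-Hochberg adjustment; separate probes were fitted over 29554 probes. Figures used Python 3.11.15, pandas 2.3.3 and matplotlib 3.10.9. The code was tested on simulated data. The members and gene lists were chosen with earlier results of these data known. Named were all members and up to 5 called genes per list and comparison, by size of difference and then by bound of the fold; genes outside this rule are marked as such. The values of 1 gene of the lists are not reported here. Genes of like pattern were the 3 nearest profiles of the 3 members with the widest range of group means. Alternatives were quantile normalization, normexp with offset 50, the authors' table, other filters and probe rules, replicate and slide blocks, each array left out and, chosen after seeing the data, no scaling and 2 arrays left out together. Samples were not treated as paired by replicate number in the main fit. Deviations of same-numbered MHCIIhi and MHCIIlo arrays correlated at 0.19, -0.35 and 0.28, and so few values cannot settle whether they were paired. The number of arrays limits the precision.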

Additional observations from a re-analysis of the deposited data

How the results depend on the processing

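The number of receptor genes called for kidney minus MHCIIhi was 8 and for kidney minus MHCIIlo 8 or 9 under every alternative run except no scaling, where each was 6. For MHCIIhi minus MHCIIlo the main count of 4 moved to 2 with quantile normalization, 1 with normexp, 2 with slide as a random block, 1 with slide as a fixed block (1 MHCIIhi array, spread pooled over all arrays; kidney comparisons could not be fitted so, since kidney has its own slide), 8 with no minimum difference and 1 without scaling. Leaving out each array gave 1 to 5. With the replicate block the counts were 4, 8 and 9, as without it. Without scaling, the sign turned for MHCIIhi minus MHCIIlo in Ifngr1 (0.52), Ifngr2 (0.11), Ifnar1 (0.66), Ifnar2 (0.78), Il22ra1 (0.06), Il10rb (0.17), Il4ra (0.01), Il13ra1 (0.37) and Il6st (1.12), for kidney minus MHCIIhi in Il10rb (0.69), and for kidney minus MHCIIlo in Ifnar1 (2.17) and Il10rb (0.86). Il6st also turned, to 0.19, for MHCIIhi minus MHCIIlo without MHCIIlo 3, and ranged from -0.22 to 0.19 as each array was left out. Of the member values, 181 of 210 for MHCIIhi minus MHCIIlo, 195 of 200 for kidney minus MHCIIhi and 194 of 200 for kidney minus MHCIIlo kept their direction and call. Normexp moved the all-gene medians to -0.50, -0.35 and -0.61 in the same order. Relative to that, Ifngr1 (0.14), Ifnar1 (0.07) and Ifnar2 (0.15) lay above the median in MHCIIhi minus MHCIIlo. Over all genes, the 6191 calls of MHCIIhi minus MHCIIlo became 2957 with normexp, 1681 with the fixed slide block, 4024 with only probes measured on all arrays, 10008 with no minimum difference and 9294 without MHCIIhi 3 and MHCIIlo 1 together. The 9670 calls of kidney minus MHCIIhi became 5444 with only probes measured on all arrays, and the 11505 of kidney minus MHCIIlo became 7021, or 17710 with no filter. The causes were not tested, beyond the fewer or more genes and arrays that these settings use.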

Other observations

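Of 18 genes for the ligands of these receptors, 16 had a probe and 5 were tested. For kidney minus MHCIIhi, 1 was called higher and 2 lower (25.6% and 22.8% of all genes tested). For kidney minus MHCIIlo, 0 were called higher and 2 lower (29.8% and 27.9% of all genes tested). Il6, a ligand that signals through Il6st, was at least 2.31-fold higher in kidney than in MHCIIhi, where its probe was not well above background on any array. Of the fibroblast and muscle markers, Dcn, Myh11 and Col3a1 were also higher in kidney than in MHCIIhi, whereas Acta2 was lower. Each endothelial marker was higher in kidney too. The part of such cells in the Il6 difference was not tested. Il13, the ligand of Il13ra1 and Il4ra, was 2.64-fold lower in kidney than in MHCIIhi (-1.40 ± 0.32, limma adjusted p = 0.00434) and 5.24-fold lower than in MHCIIlo (-2.39, limma adjusted p = 0.000149), and without scaling the differences were -0.20 and -0.03. Il11 was lower in kidney by -1.11 and -1.08 after scaling, and turned to 0.09 and 1.28 without it. Between MHCIIhi and MHCIIlo, 0 ligand genes measured in either group were called by limma, while 31% of all genes tested were called. Of these ligand genes, Il13 had a difference of -0.99 (limma adjusted p = 0.031), just under the size needed for a call.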
